A study of Homo sapiens with 6 samples.

Results

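This report describes 34 genes of the Hippo pathway, 22 that encode its regulators and 12 known as target genes of its coactivators YAP and TAZ, in A375 cells with and without a knockdown of the kinase MAP4K5. The members were taken by name from general knowledge of the pathway, with earlier results of these data known, and each was read by the probe set annotated to it alone that had the highest mean over all arrays. All 34 were measured, among 18132 genes in all. A375 is a human melanoma cell line. RNA was profiled on 6 Affymetrix arrays, 3 of cells labelled A375 alone (control) and 3 of A375 cells in which a short hairpin RNA stably lowers MAP4K5 (knockdown). Both groups were grown in DMEM with 10% serum and were not treated, and 250 ng of RNA entered each labelling reaction. The labels call the arrays biological replicates without saying how the cultures were kept apart, so the p-values reflect how far these arrays spread, which may be technical. Whether the knockdown cells are 1 clone, and whether the control cells carried an empty or control hairpin vector, was not stated in the sources used here. Effects of a vector or of making the line and those of low MAP4K5 cannot be told apart.

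The Hippo pathway is a kinase cascade that limits growth and senses cell contact, polarity and tension. MST kinases and, in parallel, kinases of the MAP4K family phosphorylate and activate LATS1 and LATS2, which need the adaptor MOB1 for full activity. Active LATS phosphorylates YAP (YAP1) and TAZ (WWTR1), which are then held in the cytoplasm or degraded. Unphosphorylated YAP and TAZ enter the nucleus, bind TEAD transcription factors and switch on genes of the matrix, cytoskeleton and growth, among them feedback inhibitors of the pathway itself. The comparison of knockdown with control cells therefore asks, for these genes, whether transcripts of the cascade and of its target genes differ when the transcript of a MAP4K kinase is low. Phosphorylation and location of the proteins were not measured.

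MAP4K5 was lower on every knockdown array, at 19.7, 18.8 and 20.3 in RMA intensity (a linear scale) against 77.7, 78.1 and 76.3 in control cells, a log2 fold change of -1.98 ± 0.08 (SE, 3 arrays a group; adjusted p = 2.9e-05 by limma). All fold changes are knockdown minus control. Of 11 measured markers of melanoma and the neural crest, 6 lay above the median gene, at 8.68 in intensity (SOX10, MITF, S100B, MIA, PRAME and VIM), while the pigment genes PMEL, MLANA, TYR and TYRP1 did not. MITF rose and SOX10, S100B and MIA fell in knockdown cells. Markers of endothelium (4 measured), fibroblasts (5) and leukocytes (4) all lay below the median gene in mean level. Of 5 epithelial markers, KRT14, which rose, and KRT8 lay above it. The summed epithelial level was 28.4 to 42.9 in control and 45.4 to 51.9 in knockdown cells, and the leukocyte sum, which LYZ led, 11.9 to 14.2 and 17.9 to 18.6. The part of these markers in the results was not tested. Control replicate 2 stood apart from the other controls: over all genes the SD of its log2 difference from them was 0.32, against 0.20 between controls 1 and 3 and 0.17 between any 2 knockdown arrays. Control 2 differed less from the knockdown arrays (0.27 to 0.28) than from the other controls, although its MAP4K5 level was that of a control. Member results that rest on it are therefore given with and without it, either at the gene or together in the account of control 2.

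Of the 34 members, 6 passed the test (limma, Benjamini-Hochberg adjusted p under 0.05 over all 18132 genes), 3 higher and 3 lower in knockdown cells. The tissue factor gene F3, the scaffold gene WWC1 and the four-jointed homologue FJX1 rose, and the LATS adaptors MOB1A and MOB1B and the RNA-binding protein gene RBMS3 fell. This is 17.6% of the members, where 7.83% of all genes passed, 3.7% upwards and 4.13% downwards. Members tended to be brighter than other genes, with 28 of 34 above the median, and with the lowest 50% of genes left out the share was 21.4% of those 28, against 18% of all genes kept. In 10 members (29.4%) the groups did not overlap, against 28.1% of all genes. The median log2 fold change was -0.10 over the 22 regulators and -0.06 over the 12 targets, beside 0.01 over all genes. In bulk RNA, fewer cells that express a gene and less of its RNA per cell cannot be told apart. Only F3, WWC1 and MOB1A kept their calls in each of the 17 alternative analyses, which include the 6 fits without 1 array. Without control replicate 2, 12 members passed (35.3%, against 20.6% of all genes), 4 upwards and 8 downwards. That share of all genes includes dim ones, and no fit without control 2 was limited to the brighter genes.

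**Figure D1:**
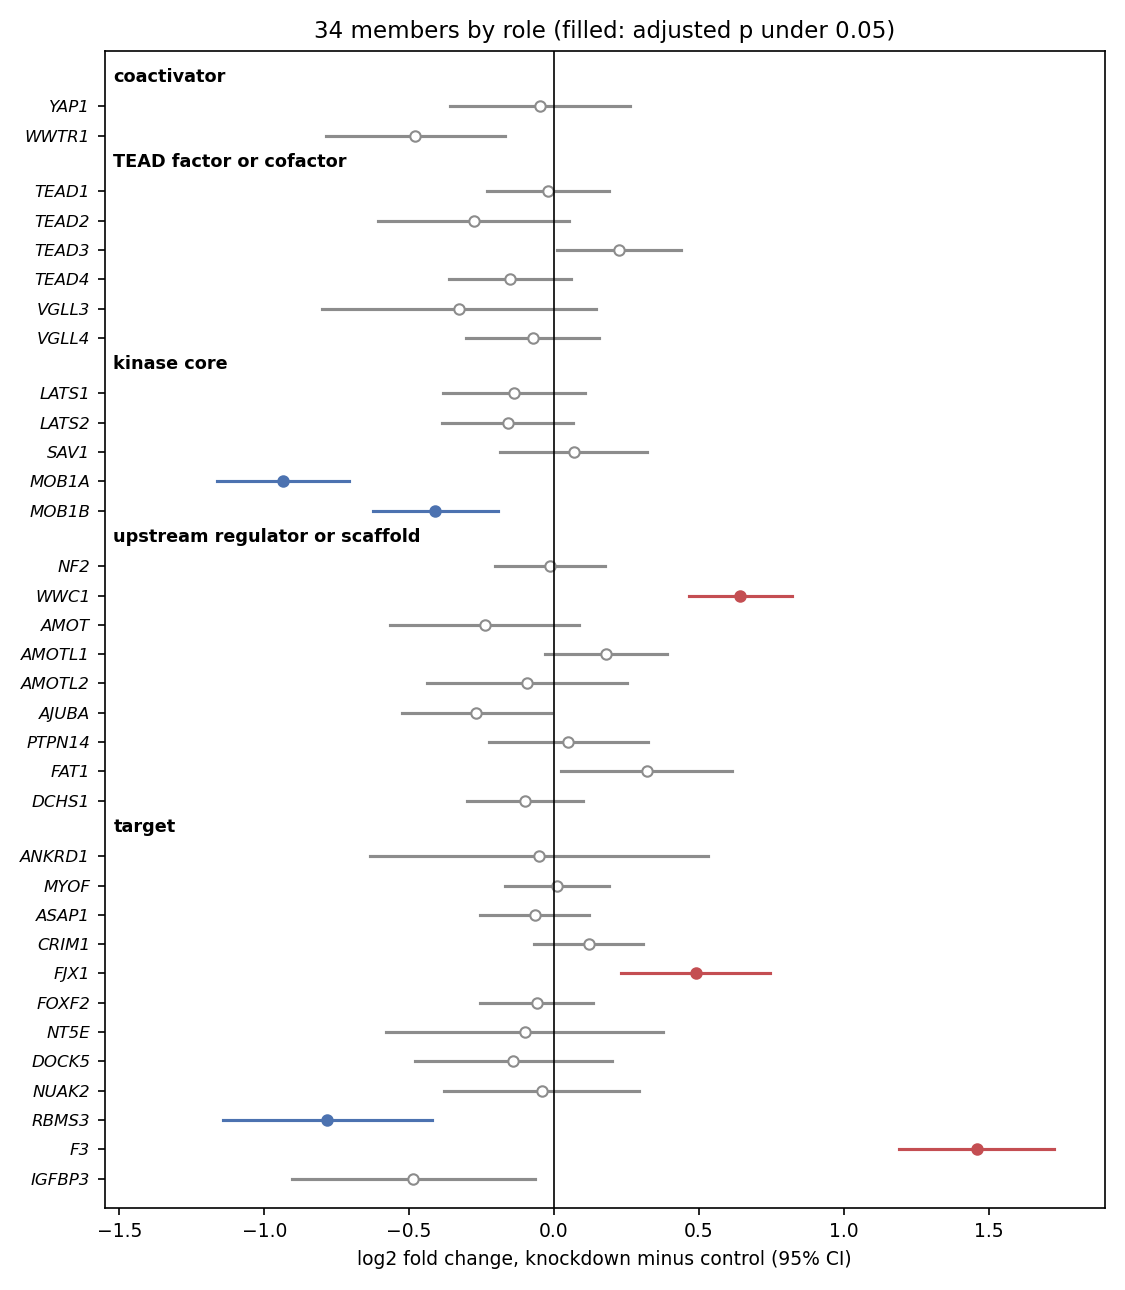
Log2 fold change of each of the 34 members (x axis, knockdown minus control, with its 95% confidence interval), in blocks by role. Filled points passed the test at an adjusted p under 0.05, red for higher and blue for lower in knockdown cells: F3 lies farthest right at 1.46 and MOB1A farthest left at -0.94, and 28 members are open.

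Within the kinase core, the called genes were MOB1A and MOB1B of the LATS adaptor, both lower in knockdown cells. These are 2 of the 5 core genes (40%), against 7.83% of all genes. Only 1 of the 5 lay below the median gene, and with the lowest 50% of genes left out 18% of all genes passed. MOB1A, the more studied of a pair of near-identical MOB1 proteins that bind and activate LATS kinases, measured 249, 263 and 211 in control replicates 1, 2 and 3 and 126, 124 and 128 in knockdown replicates 1, 2 and 3. The groups lay well apart, the lowest control above the highest knockdown array, and control 2 was the highest of all. The log2 fold change was -0.94 ± 0.10 (SE), a 1.91-fold decrease (adjusted p = 0.00191 by limma, 3 arrays a group), with a range of -1.03 to -0.87 over the fits without 1 array. MOB1B, which encodes the second MOB1 protein, measured 67.3, 67.4 and 78.3 in control and 55.3, 50.1 and 54.7 in knockdown cells. Its groups did not overlap either, with a 1.33-fold decrease (-0.41 ± 0.09 SE, adjusted p = 0.0367). Of the fits without 1 array, MOB1B kept its call only in that without control replicate 2 (-0.45, adjusted p = 0.0145), and the adjusted p without any other array lay between 0.081 and 0.145. The mean of its probe sets gave -0.18 (adjusted p = 0.25).

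The kinases themselves and the scaffold SAV1 did not pass. LATS2, a LATS kinase whose gene is also known as a YAP target, measured 108, 87.6 and 102 in control and 85.6, 91.4 and 88.9 in knockdown cells. Control 2 lay among the knockdown arrays, and the log2 difference was -0.16 with a 95% interval of -0.39 to 0.07. LATS1, the other LATS kinase, measured 3.35, 3.29 and 2.70 in control and 2.86, 2.64 and 2.98 in knockdown cells. These levels lie at the 22.8th percentile of gene means, where RMA compresses differences, and the interval was -0.38 to 0.11. SAV1, which couples MST to LATS, overlapped between the groups (0.07 ± 0.11 SE).

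**Figure D2:**
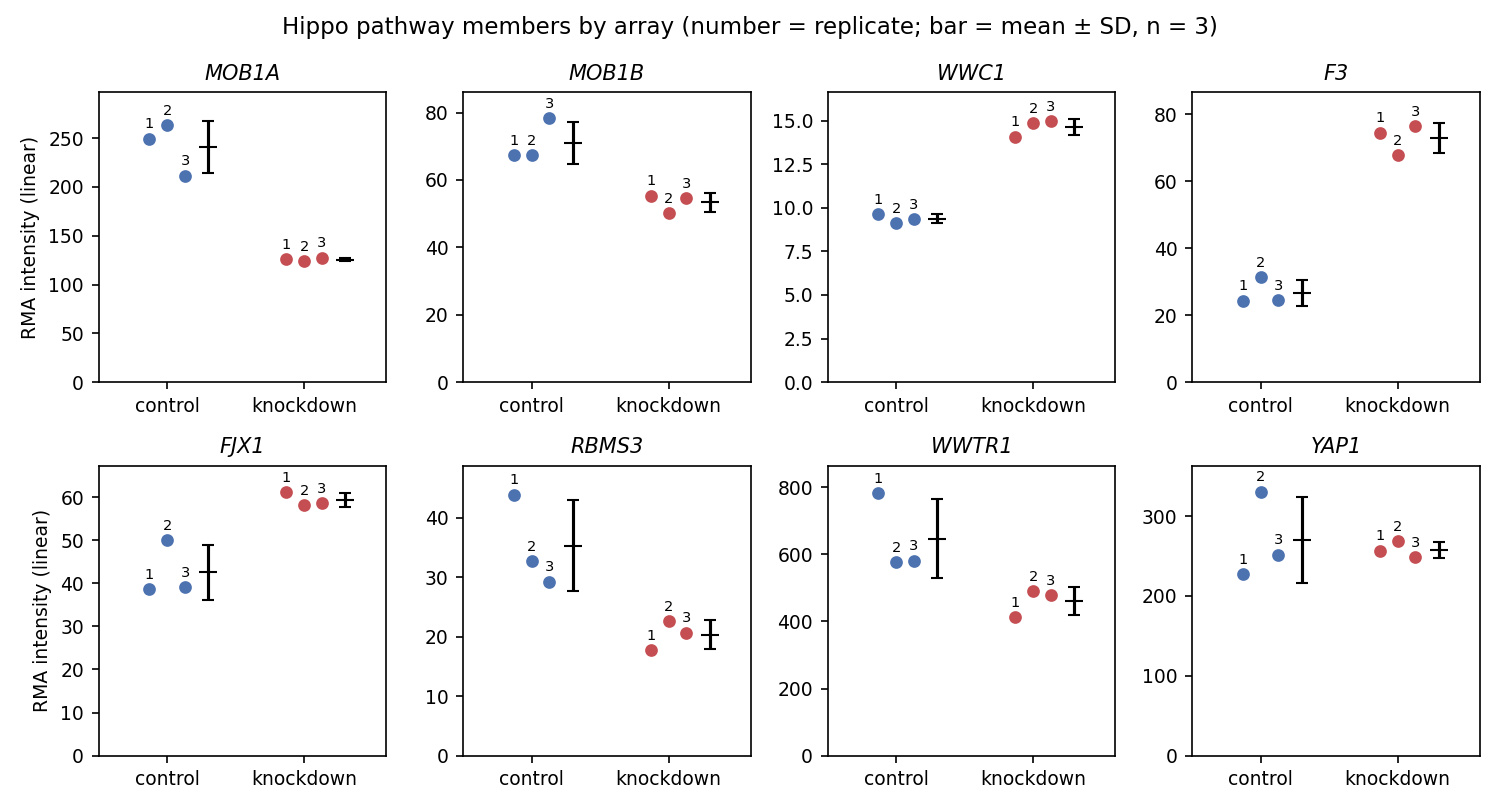
RMA intensity (y axis, linear, from 0) of 8 members on each of the 6 arrays, control in blue and knockdown in red, with the replicate number above each point and the mean ± SD (n = 3) beside it. The groups do not overlap for MOB1A, MOB1B, WWC1, F3, FJX1, RBMS3 and WWTR1, whereas YAP1 in knockdown cells (248 to 268) lies within the controls (227 to 331).

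Among the 9 upstream regulators and scaffolds, WWC1 rose and the other 8 were not called (11.1% called, against 7.83% of all genes). WWC1 encodes KIBRA, which binds merlin and LATS at the cell cortex and promotes LATS activation. Its intensity was 9.64, 9.12 and 9.35 in control and 14.1, 14.9 and 14.96 in knockdown cells. Replicates of a group were close and the groups lay far apart, control 2 included. The rise was 1.56-fold (0.64 ± 0.08 SE on the log2 scale; adjusted p = 0.00359 by limma) and ran from 0.62 to 0.67 in the fits without 1 array. WWC1 lies near the median gene (53.5th percentile), so its fold may be compressed, and its second, dimmer probe set did not pass (0.18 ± 0.09 SE). The rise was 0.41 with averaged probe sets (adjusted p = 0.0105) and 0.38 on the scale of log2 of intensity plus 8 (adjusted p = 0.00395).

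NF2, which encodes the tumour suppressor merlin, differed by -0.01 ± 0.08 (SE), with an interval of -0.21 to 0.18. Of the angiomotins, junction proteins that bind YAP and LATS, AMOT stood at -0.24, AMOTL1 at 0.18 and AMOTL2 at -0.09, none called. AMOTL1 passed at 1 of its 4 probe sets (0.51 ± 0.11 SE, limma adjusted p = 0.0328 over all probe sets), and the other 3 lay above 0 as well, at 0.14 to 0.37. FAT1, a giant atypical cadherin of the pathway, measured 181, 239 and 172 in control and 233, 240 and 260 in knockdown cells. Control 2 lay within the knockdown range, and FAT1 was called only without it among the fits without 1 array (0.32 ± 0.13 SE with it, adjusted p = 0.179; 0.46, adjusted p = 0.00712 without it). AJUBA, a LIM protein that binds LATS and lowers its activity, measured 89.7, 68.3 and 85.6 in control and 68.1, 65.2 and 67.6 in knockdown cells, so that control 2 lay just above the knockdown arrays. It was likewise not called with control 2 (-0.27 ± 0.11 SE, adjusted p = 0.195) and called without it (-0.39, adjusted p = 0.0102). DCHS1, a cadherin partner of the FAT family, and PTPN14, a phosphatase that binds YAP, were dim and stood at -0.10 and 0.05.

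For the coactivators, YAP1 showed no called difference and TAZ was lower without passing the test. YAP1 measured 227, 331 and 252 in control and 257, 268 and 248 in knockdown cells. Control 2 was the highest array and the groups overlapped, with a log2 difference of -0.05 ± 0.14 (SE) and a 95% interval of -0.36 to 0.26. WWTR1, the gene of TAZ, measured 782, 576 and 581 in control and 413, 490 and 479 in knockdown cells. Every knockdown array lay below every control, and control 1 was the highest. The decrease of 1.39-fold (log2 -0.48 ± 0.14 SE, 95% interval -0.79 to -0.17) missed the threshold at a limma adjusted p of 0.0702. Over the alternatives its adjusted p ran from 0.0255 to 0.238. WWTR1 passed with an intensity trend (0.0451), with array weights (0.0255), with the mean of its probe sets (-0.35, adjusted p = 0.0462) and without control replicate 2 (-0.55, adjusted p = 0.0263). In the limma test over all probe sets, a second of its 3 probe sets passed (-0.42 ± 0.09 SE, adjusted p = 0.0318). The brightest did not (adjusted p = 0.0898), nor did the dimmest (-0.15 ± 0.14 SE, adjusted p = 0.646).

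The DNA-binding partners of YAP and TAZ did not pass. Of the TEAD factors, TEAD1 stood at -0.02, TEAD2 at -0.28, TEAD3 at 0.22 and TEAD4 at -0.15. The groups did not overlap for TEAD3 (5.93 to 6.68 in control, 6.86 to 7.99 in knockdown cells; adjusted p = 0.189), which is dim, or for TEAD4 (66.0 to 75.3 and 58.0 to 65.4; adjusted p = 0.373). For TEAD2, control 2 (49.6) lay above all other arrays, which ranged from 30.6 to 36.3. VGLL4, a cofactor that competes with YAP for TEAD, stood at -0.07, and VGLL3, another vestigial-like cofactor, at -0.33, with 5.56 in control 2 and 2.89 to 3.38 on all other arrays.

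Of the 12 target genes, 2 rose, 1 fell and 9 were not called. This is 25% called, against 7.83% of all genes. With the lowest 50% of genes left out, 18% of all genes passed. The targets that moved did not share a direction. F3 encodes tissue factor, the cell-surface starter of blood clotting. Its intensity was 24.4, 31.3 and 24.4 in control and 74.4, 67.7 and 76.5 in knockdown cells. All knockdown arrays lay far above the highest control, which was control 2. F3 rose 2.75-fold (1.46 ± 0.12 SE on the log2 scale; adjusted p = 0.000518 by limma), with a range of 1.40 to 1.58 over the fits without 1 array. FJX1 encodes a Golgi protein related to the fly kinase four-jointed, which acts on FAT and Dachsous cadherins. It measured 38.6, 49.96 and 39.1 in control and 61.1, 58.1 and 58.7 in knockdown cells, a 1.40-fold rise (0.49 ± 0.11 SE, adjusted p = 0.0369). Control 2 was the control nearest to the knockdown arrays, and of the fits without 1 array FJX1 was called only without control 2 (0.61, adjusted p = 0.00134), with adjusted p-values of 0.119 to 0.148 in the other fits.

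RBMS3, the gene of an RNA-binding protein, measured 43.8, 32.7 and 29.2 in control and 17.7, 22.5 and 20.6 in knockdown cells. The groups did not overlap, although the controls spread widely. RBMS3 fell 1.72-fold (-0.78 ± 0.16 SE on the log2 scale; adjusted p = 0.0247 by limma). Its call was lost without control replicate 1 (-0.61, adjusted p = 0.0545) or without any 1 knockdown array (-0.86 to -0.69, adjusted p = 0.0668 to 0.113), and it held without control 2 or 3. It was also lost on the scale of log2 of intensity plus 8 (-0.60, adjusted p = 0.0537).

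The other targets lay between -0.49 and 0.12, none called. ANKRD1, a muscle and stress protein gene and one of the most used readouts of YAP, measured 43.6, 22.0 and 43.6 in control and 29.8, 31.6 and 39.9 in knockdown cells. Control 2 was the lowest array and controls 1 and 3 the highest, so the interval of the log2 difference is wide, -0.64 to 0.53. NT5E, the ectonucleotidase CD73, measured 250.3, 138 and 243 in control and 179.7, 192 and 197 in knockdown cells, again with control 2 lowest (-0.10, adjusted p = 0.83; -0.38, adjusted p = 0.0134 without control 2). DOCK5, an activator of Rac, was likewise lowest on control 2, at 133, 93.4 and 138 in control and 103, 108 and 115 in knockdown cells. Its log2 difference was -0.14 (limma adjusted p = 0.639) with control 2 and -0.32 (adjusted p = 0.0316) without it. IGFBP3, a binding protein of insulin-like growth factors, measured 66.8, 41.5 and 65.4 in control and 45.8, 38.4 and 37.5 in knockdown cells. Control 2 lay between knockdown replicates 1 and 2, and IGFBP3 stood at -0.49 ± 0.18 (SE, adjusted p = 0.153) with it and at -0.71 (adjusted p = 0.00256) without it. The narrowest intervals were those of MYOF, a membrane repair protein (-0.17 to 0.19), of ASAP1, an Arf GTPase activator (-0.26 to 0.12), of CRIM1, a transmembrane binder of BMPs (-0.07 to 0.31), and of FOXF2, a forkhead factor (-0.26 to 0.14). NUAK2, an AMPK-related kinase, was dim and stood at -0.04.

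**Figure D3:**
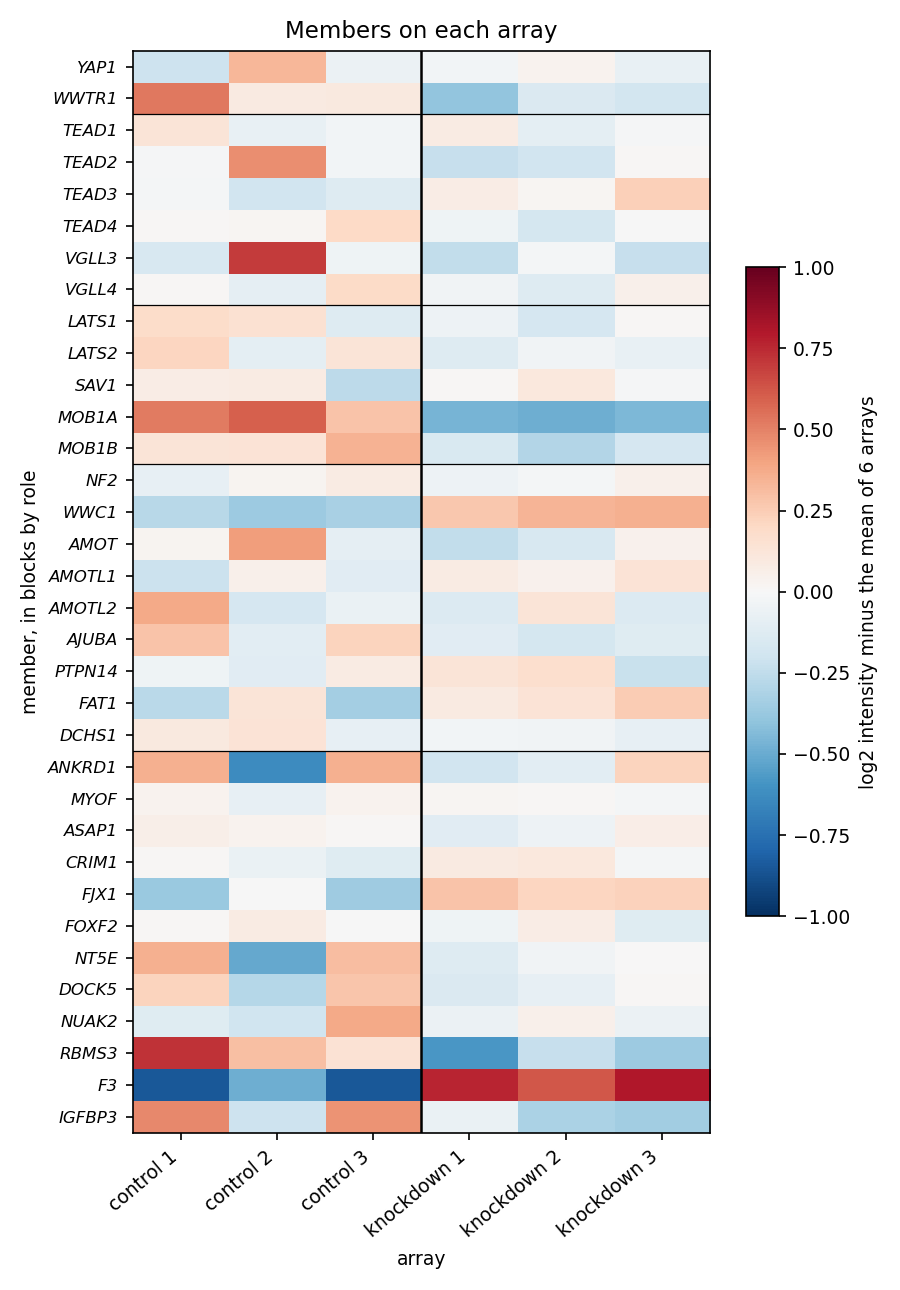
Log2 intensity of each member (rows, in blocks by role) on each array (columns), minus its mean over the 6 arrays, from blue (lower) to red (higher). F3 and WWC1 are low on all 3 control arrays and high on all 3 knockdown arrays and MOB1A the reverse, whereas ANKRD1 and NT5E are lowest, and YAP1, TEAD2 and VGLL3 highest, on control replicate 2.

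Control replicate 2 was the highest of the 6 arrays for 7 members and the lowest for 8, together 15 of 34. The same count was 14 for control 1, 11 for control 3 and 8 to 10 for the knockdown arrays. The distance of control 2 from the mean of controls 1 and 3 was largest for ANKRD1 (-0.99 on the log2 scale), NT5E (-0.84), VGLL3 (0.80) and IGFBP3 (-0.67). Controls 1 and 3 lay close to each other in these genes, at 43.6 and 43.6 for ANKRD1 and 3.06 and 3.33 for VGLL3. Without control 2, values that had leaned on it shrank, VGLL3 from -0.33 to -0.06, TEAD2 from -0.28 to -0.12 and AMOT from -0.24 to -0.09. Others grew, ANKRD1 from -0.05 to -0.38 (limma adjusted p = 0.0741), LATS2 from -0.16 to -0.25 (adjusted p = 0.0662) and AMOTL2 from -0.09 to -0.20, and YAP1 turned from -0.05 to 0.11 (adjusted p = 0.454). None of these 7 was called with or without it. With array weights, which keep all 6 arrays, WWTR1, AJUBA, FAT1 and IGFBP3 were called besides the 6 members. In that fit 17.1% of all genes, dim ones included, were called.

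The promoters of the 3 members called in every alternative are shown because their calls were the most stable, and that of ANKRD1 because it is a textbook target with TEAD letters near its start, although its own level was measured least precisely here. Each is the stretch of 250 bases that ends just before an annotated transcript start, from RefSeq on GRCh38.p14, 5′ to 3′ on the strand of the gene, all on the minus strand except WWC1. Capitals mark GGAATG or its reverse complement CATTCC, the core letters bound by TEAD factors, and TGACTCA or TGAGTCA, the letters bound by AP-1, a dimer of Jun and Fos proteins. Both strands were searched. The motifs can share letters, but no matches overlap in the sequences shown.
F3, chr1:94541760-94542009: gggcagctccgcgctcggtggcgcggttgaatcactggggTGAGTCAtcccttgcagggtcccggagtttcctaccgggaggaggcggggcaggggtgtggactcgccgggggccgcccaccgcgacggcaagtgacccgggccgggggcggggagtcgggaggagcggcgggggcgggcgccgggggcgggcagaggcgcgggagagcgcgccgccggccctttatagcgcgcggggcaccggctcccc
WWC1, chr5:168291395-168291644: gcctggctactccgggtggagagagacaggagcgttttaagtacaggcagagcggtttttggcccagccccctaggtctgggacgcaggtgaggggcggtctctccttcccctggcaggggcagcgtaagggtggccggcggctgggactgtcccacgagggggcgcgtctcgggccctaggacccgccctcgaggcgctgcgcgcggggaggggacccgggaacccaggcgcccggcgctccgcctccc
MOB1A, the outer of 2 annotated starts, chr2:74178880-74179129: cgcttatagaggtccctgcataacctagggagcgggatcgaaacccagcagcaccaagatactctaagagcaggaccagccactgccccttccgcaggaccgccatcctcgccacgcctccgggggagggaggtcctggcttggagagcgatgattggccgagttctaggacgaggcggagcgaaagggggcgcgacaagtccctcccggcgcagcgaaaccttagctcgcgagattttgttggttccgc
ANKRD1, chr10:90921088-90921337: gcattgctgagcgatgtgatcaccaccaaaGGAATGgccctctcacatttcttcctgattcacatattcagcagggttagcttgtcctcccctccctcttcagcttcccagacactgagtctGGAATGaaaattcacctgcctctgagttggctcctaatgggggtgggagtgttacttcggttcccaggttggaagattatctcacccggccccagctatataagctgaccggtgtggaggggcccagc

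ANKRD1 held the TEAD letters at 2 places, their first bases 220 and 128 bases before the start, and F3 held the AP-1 letters once, 210 bases before the start. Neither motif was found in the windows of WWC1 and MOB1A. The promoter table matched 28 of the 34 members, all but ASAP1, CRIM1, DCHS1, DOCK5, TEAD1 and TEAD4. Of these 28, 7 (25%) held the TEAD letters in at least 1 window, against 14.3% of all 27305 symbols of the table. They were AJUBA, AMOTL2, ANKRD1, FOXF2, NUAK2, PTPN14 and YAP1, of which 0 were called. For AJUBA and AMOTL2 the match did not lie at the outermost annotated start. A symbol can have several windows, and by window the letters stood in 7 of 40 of the members, against 11.9% of all 35116. The AP-1 letters stood in 1 of the 28, that of F3 (3.57%), against 5.19% of all symbols. A match describes letters in this window and shows no binding, and distal enhancers, where TEAD factors mostly bind, lie outside it.

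Most members had several probe sets, 94 in all, and in the test per probe set 4.48% of all 44988 passed. For MOB1A all 5 probe sets lay below 0, from -0.94 to -0.39, and 3 passed. For F3 all 3 lay above 0, and the dimmest did not pass (0.76 ± 0.20 SE, limma adjusted p = 0.0714 over probe sets). Both probe sets of RBMS3 passed (-0.78 and -0.70). MOB1B was read by 1 bright probe set, which fell just short among probe sets (-0.41, adjusted p = 0.0532), and by 1 dim probe set at 0.04, and the single probe set of FJX1 stood at an adjusted p of 0.0509. The 8 probe sets of YAP1 did not share a direction, 5 of them below and 3 above 0, from -0.30 to 0.28, and 0 passed.

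**Figure D4:**
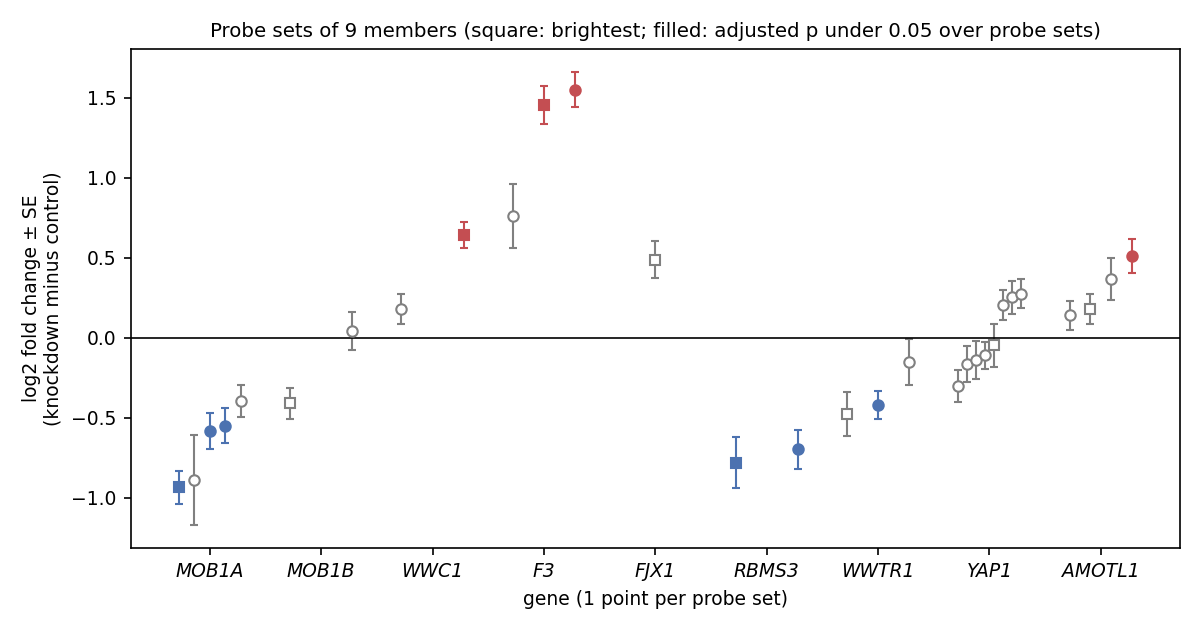
Log2 fold change ± SE (y axis, knockdown minus control) of every probe set of 9 members, with a square for the brightest and filled symbols for an adjusted p under 0.05 over all probe sets. All probe sets of MOB1A and RBMS3 lie below 0 and all of F3 and AMOTL1 above it, whereas those of YAP1 lie on both sides.

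Other genes of the pathway, in 5 lists written from general knowledge, were measured for 94 of 105 entries. Of these, 4 rose and 11 fell, 16% against 7.83% of all genes, with a median of -0.01. These genes too were brighter than most, and with the lowest 50% of genes left out 15 of 68 passed (22.1%), against 18% of all genes kept. Without control replicate 2, 30 of the 94 passed, where 20.6% of all genes did, dim ones included. Without any other array 3 to 6 passed, where 1.79% to 3.12% of all genes did. Among polarity and junction regulators, 3 of 20 fell and 0 rose (15%, against 7.83% of all genes). The 3 falls stayed called without control 2, but that no gene rose depended on control 2. Without it, SCRIB (0.42, limma adjusted p = 0.00759) and LLGL2 (0.48, adjusted p = 0.015) also passed upwards. FAT3 (-0.89, adjusted p = 0.0145) and CTNNA1 (-0.30, adjusted p = 0.0313) then also passed downwards. WWC3 and WWC2, paralogs of KIBRA, measured 59.8, 52.6 and 64.8 and 51.1, 47.3 and 48.3 in control, and 40.9, 40.02 and 41.9 and 38.9, 35.7 and 39.9 in knockdown cells, and so lay on the other side of 0 from WWC1 (WWC3 -0.52 ± 0.10 SE, limma adjusted p = 0.0173; WWC2 -0.36 ± 0.08 SE, adjusted p = 0.0385). Both calls held only without control 2 among the fits without 1 array. With averaged probe sets WWC3 stood at -0.34 (adjusted p = 0.0371) and WWC2 was not called (-0.19, adjusted p = 0.206). FRMD6, a FERM protein that activates the cascade, fell by 0.52 on the log2 scale (adjusted p = 0.0206). Among the fits without 1 array it kept its call only without control 2 or 3, and of the 11 other alternatives it lost it with averaged probe sets (-0.32) and without probe sets that can bind several transcripts (-0.12).

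Of 17 measured Hippo kinases and their activators, 1 fell and 0 rose (5.88%, against 7.83% of all genes). The call was that of STK38L, a LATS-related kinase that also binds MOB1 (-0.32 ± 0.08 SE, limma adjusted p = 0.0453), and it held only without control 2 among the fits without 1 array and in 5 of the 11 other alternatives. Of 16 measured genes of STRIPAK, the phosphatase complex that opposes MST kinases, 1 was called (6.25%, against 7.83% of all genes). STRN, a dim scaffold gene, rose (0.53, limma adjusted p = 0.0477). Its call held only without control 2 among the fits without 1 array, and in 4 of 10 other alternatives. It stood at 0.18 on the scale of log2 of intensity plus 8 and at 0.30 with averaged probe sets, and was not called in either. Among 16 genes of YAP and TAZ binding and turnover, 2 rose and 2 fell (25%, against 7.83% of all genes). All but VGLL1 lay above the median gene, and with the lowest 50% of genes left out 18% of all genes passed. RUNX2, a bone transcription factor that binds YAP and TAZ, fell 1.88-fold (-0.91 ± 0.12 SE, adjusted p = 0.00559), from 20.3 to 26.4 in control to 12.2 to 14.2 in knockdown cells, and was called in all 17 alternatives, with the smallest value, -0.46, for averaged probe sets. SFN, a 14-3-3 protein gene, rose by 0.75 (adjusted p = 0.0141; called without control 2 or 3 and lost without any other array). BTRC, a ubiquitin ligase subunit that targets phosphorylated YAP and TAZ, stood at -0.53 (adjusted p = 0.0329) and VGLL2, a vestigial-like cofactor, at 0.39 (adjusted p = 0.0321), and both kept their calls only without control 2 among the fits without 1 array. BTRC stood at -0.22 (adjusted p = 0.545) without probe sets that can bind several transcripts, and VGLL2 at 0.23 (adjusted p = 0.14) with averaged probe sets.

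Of 25 measured further YAP and TEAD target genes, 1 rose and 5 fell, with a median of -0.23 beside 0.01 over all genes. This is 24% called, against 7.83% of all genes. With the lowest 50% of genes left out, 18% of all genes passed. BDNF, a neurotrophin, rose 2.69-fold, from 35.6 to 42.5 in control to 96.5 to 109 in knockdown cells (1.43 ± 0.10 SE; adjusted p = 0.000312 by limma), and was called in all 17 alternatives. FSTL1, a secreted follistatin-like glycoprotein, fell 2.75-fold, from 82.4 to 105 to 31.9 to 35.5 (-1.46 ± 0.10 SE, adjusted p = 0.000389), in every fit without 1 array. It stood at -0.75 with averaged probe sets, and its other probe set, which does not end in _x_at or _s_at, at -0.04. MYC, a growth-promoting transcription factor, stood at -0.87 (adjusted p = 0.0447) and FGF2, a fibroblast growth factor, at -0.49 (adjusted p = 0.0365). Among the fits without 1 array, both kept their calls only without control 2, and they were called in 9 and 10 of the 11 other alternatives. Without control 2, GADD45A (-1.41, limma adjusted p = 3.84e-05) and DLC1 (-0.70, adjusted p = 0.000802) also passed downwards. So did ETV5 (-0.64, adjusted p = 0.00305) and AXL (-0.42, adjusted p = 0.00944). BIRC5 (0.39, adjusted p = 0.0108) then also passed upwards. These genes and the most used readouts, CCN1 and CCN2, were named after their values were seen. Neither CCN1 nor CCN2 was called with or without control 2. CCN1 measured 161, 253 and 163 in control and 159.6, 139 and 150.5 in knockdown cells (-0.33, 95% interval -0.72 to 0.06), with control 2 far above all other arrays, and stood at -0.12 (adjusted p = 0.426) without it. CCN2 measured 193, 196 and 178 and 199, 211 and 217 (0.15, interval -0.04 to 0.34).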

How the data were processed

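Gene expression was measured on 6 arrays, 3 control and 3 knockdown. The authors deposited 1 linear intensity per probe set and array. Per the submitters' processing notes these are RMA values (version and build not stated in the sources used here). RMA normalizes quantiles across arrays and compresses differences of dim probe sets. No detection calls were used, and 3 arrays a group limit the precision.

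Here log2 was taken with no pseudocount. Of 49293 probe sets, 44988 had 1 gene symbol, 1832 several and 2473 none, by the platform annotation. Symbols were checked through Entrez identifiers against RefSeq (GRCh38.p14; 0 changed, 27 not matched). The probe set with the highest mean of log2 values served for each of 18132 genes, with no filter. Groups were compared with limma 3.58.1 (R 4.3.3; lmFit, eBayes without trend) and Benjamini-Hochberg adjustment over all genes at 0.05, and intervals are 95% from the moderated fit. The steps were tested on simulated data. Python 3.11.15, pandas 2.3.3 and matplotlib 3.10.9 served for promoters and plots. The members and lists were chosen with earlier results of these data known. All members were to be described by role, with values on every array for called members, YAP1, WWTR1, LATS1, LATS2 and members whose groups did not overlap with a log2 change of at least 0.5. Values of further members whose call depends on control 2 were added after they were seen. Of each other list, up to 3 called rises and 3 called falls were named, with some further genes outside this rule. The 11 alternatives besides leaving out each array were a replicate block, an intensity trend, array weights, log2 of intensity plus 8, leaving out the lowest 25% or 50% of genes, averaged probe sets per gene, dropping _x_at and _s_at probe sets, repeated quantile normalization, a common median, and a test per probe set.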

Additional observations from a re-analysis of the deposited data

How the results depend on the processing

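Under the alternatives, 14 genes changed sign 24 times, 0 of them called, none of these values beyond 0.14 in size. Without 1 array these were ANKRD1 (-0.38 to 0.11 over the fits without 1 array), NUAK2 (-0.15 to 0.14), YAP1 (-0.16 to 0.11), TEAD1 (-0.064 to 0.041), VGLL4 (-0.14 to 0.0049), SAV1 (-0.046 to 0.13), NF2 (-0.061 to 0.021), AMOTL2 (-0.20 to 0.073), PTPN14 (-0.022 to 0.17), MYOF (-0.030 to 0.032) and NT5E (-0.38 to 0.049). With array weights YAP1 stood at 0.039 and MYOF at -0.012, with repeated quantile normalization MYOF at -0.0077, with averaged probe sets AMOTL2 at 0.012, CRIM1 at -0.13 and DOCK5 at 0.093, and with _x_at and _s_at probe sets dropped VGLL3 at 0.074.

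The count of called genes, 1420, was 3103 with array weights and 324 to 3732 without 1 array (3732 without control 2). The count of called members, 6, was 10 with array weights and 3 to 12 without 1 array. The 15 calls in the other pathway lists were 27 with array weights, 8 with averaged probe sets, 9 with _x_at and _s_at probe sets dropped, 9 in the test per probe set and 3 to 30 without 1 array. The regulator median, -0.10, was -0.053 with log2 of intensity plus 8 and -0.061 with averaged probe sets, and the target median, -0.06, was 0.029 without control 3 (-0.11 to 0.029 over the fits without 1 array). The cause was not tested. MAP4K5 kept its direction and call throughout.

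Deviations of same-numbered arrays from their group means correlated at -0.08, 0.02 and 0.06. With 3 arrays a group, these values cannot show whether same-numbered cultures were paired, which the labels do not say. With the replicate number as a block, 4 members and 1188 genes were called, and MOB1B and FJX1 were not (adjusted p = 0.0522 and 0.0517). Dim members such as LATS1 limit what these arrays can show.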
